A study of Mustela putorius furo with 2 samples.

Results

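The genes described here are the semaphorins and their plexin and neuropilin receptors in the cortex of ferret pups. They were chosen by symbol alone: every name that starts with SEMA3 to SEMA7 or PLXNA to PLXND, plus NRP1 and NRP2, with at least 1 UMI (a unique molecular identifier, which counts 1 captured RNA molecule). This gave 31 of the 21317 gene names with a UMI, namely 20 semaphorins, 9 plexins and 2 neuropilins. All 31 symbols matched protein-coding genes in the RefSeq annotation of ferret.

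The study sequenced single-cell RNA from the dorsal cortex of wild-type ferrets at postnatal day 3, after papain dissociation, on the 10x Genomics Chromium platform. It holds 1 group with 2 replicates and no second condition, so every comparison is between cell classes inside the same 2 libraries. Barcodes carried 2 suffixes, called library A (9782 cells, 41836475 UMIs, median 3602.5 per cell) and library B (5005 cells, 18907140 UMIs, median 3068 per cell). The labels tie neither suffix to a replicate and do not say whether the replicates are separate animals, so p-values measure only the spread between these 2 libraries, which may be technical. The libraries shared 21 barcode sequences.

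Semaphorins are secreted or membrane-bound guidance cues that steer growing axons, migrating neurons and sprouting vessels. Most act through plexins, whose intracellular part switches off R-Ras family GTPases and alters actin and microtubules. The secreted class 3 semaphorins mostly need a neuropilin to hold the ligand, and NRP1 and NRP2 also bind VEGF on vessels. In developing rodent cortex these genes are known for guiding radial migration, callosal and corticofugal axons, and the routes of interneurons.

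Cells were sorted into classes by markers, with a minimum number of different markers of a list seen in the cell. Each class name ends in "-like" because it rests on marker RNA alone. Of the 14787 cells, 14 were removed by filters, 7542 were placed in a class and 7231 were left unassigned. Among the unassigned, 753 met gates of 2 or more lineages, as possible doublets, 4146 met none, and the others met 1 lineage without meeting the conditions of a class in it. The 13 classes with at least 20 cells in each library were used. They range from 22 perivascular-like cells in library B to 2108 excitatory neuron-like cells without deep-layer markers ("other excitatory") in library A. The inhibitory neuron-like cells were split by markers of the medial (MGE-type) or caudal (CGE-type) ganglionic eminence. Progenitors with EOMES, the marker of intermediate neuronal progenitors, and glia with HOPX, a marker of radial glia and astroglia, were each split into dividing and non-dividing cells. Endothelial-like cells had 5814 and 5451 CPM of summed endothelial markers in libraries A and B, against 11.1 to 94.1 CPM in the neural classes. Not every list separated its class on summed levels. HOPX glia markers summed to 16105 and 13713 CPM in microglia-like cells, of which APOE gave 15862 and 13420 CPM, and to 6484 and 6205 CPM in non-dividing HOPX glia-like cells. Gliogenic markers summed to 2680 and 2242 CPM in oligodendrocyte precursor-like cells, against 3172 and 2864 CPM in gliogenic progenitor-like cells.

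Levels are given as CPM, the UMIs of a gene scaled to 1e6 UMIs of the class in that library, always for library A and then library B. UMIs are not divided by transcript length, so CPM of different genes do not rank them by transcript number. The 31 genes ranged from 23 UMIs in all cells (SEMA6B) to 18676 (PLXNA2). For 15 of the 31 the highest class was the same in both libraries, and for 11 the lower library value of the class with the highest mean exceeded every value of all other classes in either library.

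**Figure D1:**
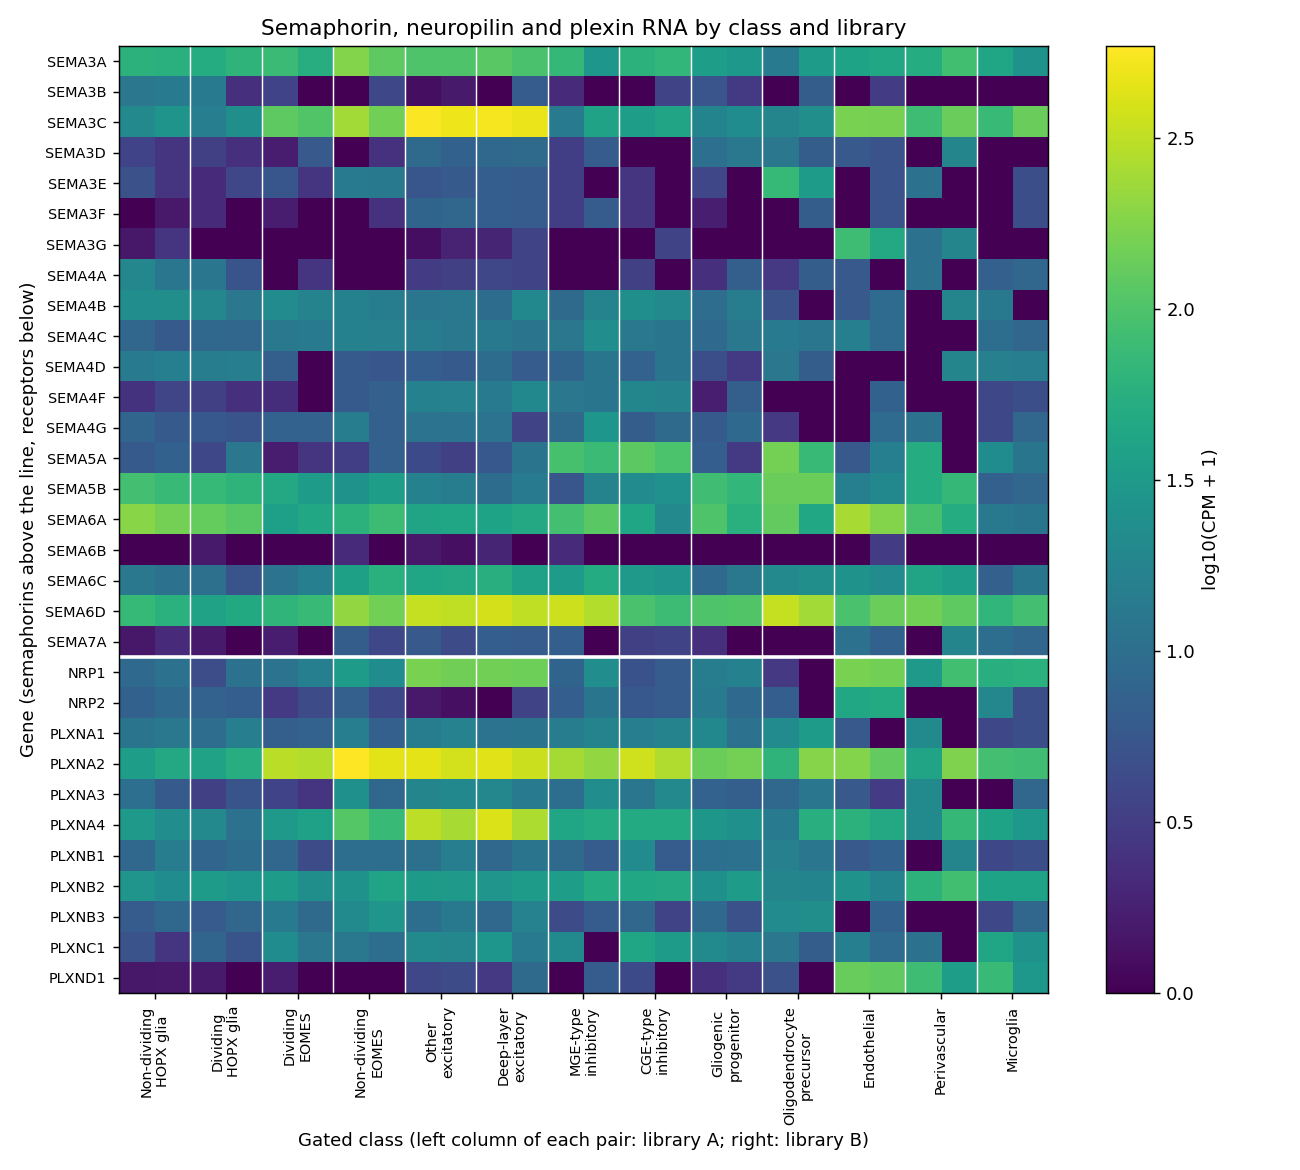
Level of the 31 genes (log10 of CPM + 1, colour) in 13 gated classes, with library A in the left and library B in the right column of each pair. SEMA3C is brightest in the 2 excitatory neuron-like classes (491 to 570 CPM), PLXNA2 in non-dividing EOMES progenitor-like cells (586 and 452 CPM), and SEMA3G and PLXND1 in endothelial-like cells.

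Among the secreted ligands, SEMA3C, which binds neuropilins with PLXND1 and attracts callosal axons in mouse, had 570 and 494 CPM in other excitatory neuron-like cells. Deep-layer excitatory neuron-like cells had 540 and 491 CPM of SEMA3C, so these neighbours in the order overlapped. SEMA3A, the growth cone collapsing ligand of NRP1, stood highest in non-dividing EOMES progenitor-like cells at 178 and 119 CPM, above all other classes in both libraries. The next class for SEMA3A, deep-layer excitatory neuron-like cells, had 114 and 93.4 CPM. SEMA3E, which binds PLXND1 without a neuropilin, had 70.3 and 33.2 CPM in oligodendrocyte precursor-like cells and at most 12.8 CPM in every other class. SEMA3G, a ligand of NRP2 known from mouse endothelium, had 79.2 and 45.9 CPM in endothelial-like cells. In perivascular-like cells SEMA3G had 10.1 and 17.1 CPM, and in the neural classes at most 2.71 CPM. The remaining class 3 ligands were sparse. SEMA3F, the NRP2 ligand that repels axons, was highest in other excitatory neuron-like cells at 6.86 and 7.14 CPM. SEMA3B was highest in non-dividing HOPX glia-like cells at 11.6 and 12.4 CPM, but dividing HOPX glia-like cells had 12.4 CPM of it in library A and 1.43 CPM in library B. SEMA3D stayed at or below 17.1 CPM in all classes.

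Of the membrane-bound class 4 ligands, none exceeded 27.2 CPM in any class. SEMA4A and SEMA4B were highest in non-dividing HOPX glia-like cells, at 18.0 and 11.2 CPM and at 21.9 and 22.5 CPM. For SEMA4B the CGE-type inhibitory neuron-like cells overlapped these values with 23.0 and 19.0 CPM. SEMA4D, the ligand of PLXNB1, was low throughout, with 15.0 and 14.5 CPM in microglia-like cells and 13.6 and 14.3 CPM in dividing HOPX glia-like cells. SEMA4C, SEMA4F and SEMA4G had their highest class mean in inhibitory neuron-like cells, with values that overlapped those of other neuronal or EOMES classes. SEMA7A, a lipid-anchored ligand of PLXNC1, reached at most 17.1 CPM, from a single UMI of perivascular-like cells in library B.

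The class 5 and class 6 ligands, transmembrane proteins that can act at contact, carried much of the glial and inhibitory signal. SEMA5A had 156 and 72.0 CPM in oligodendrocyte precursor-like cells, 117 and 94.9 CPM in CGE-type and 91.3 and 76.3 CPM in MGE-type inhibitory neuron-like cells. The highest 2 of these classes overlapped. In the other neural classes SEMA5A reached at most 11.5 CPM. SEMA5B was highest in oligodendrocyte precursor-like cells at 135 and 138 CPM, followed by non-dividing HOPX glia-like cells at 86.6 and 74.8 CPM, and these values did not overlap. SEMA6A, a ligand of PLXNA2 and PLXNA4, had 252 and 179 CPM in endothelial-like cells. Non-dividing HOPX glia-like cells had 188 and 152 CPM of SEMA6A, which overlapped the endothelial-like values. SEMA6D, a ligand of PLXNA1, was broad: 387 and 315 CPM in deep-layer and 336 and 316 CPM in other excitatory neuron-like cells, 359 and 283 CPM in MGE-type inhibitory neuron-like cells, and 333 and 244 CPM in oligodendrocyte precursor-like cells. These 4 classes overlapped one another. SEMA6C was highest in non-dividing EOMES progenitor-like cells at 36.2 and 55.6 CPM and in deep-layer neuron-like cells at 54.0 and 37.4 CPM.

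Among the receptors, PLXNA2, a receptor of SEMA6A and, with NRP1, of SEMA3A, was present in every class. It had 586 and 452 CPM in non-dividing EOMES progenitor-like cells, above all other classes in both libraries, and 34.5 and 45.5 CPM in non-dividing HOPX glia-like cells, the lowest class. PLXNA4, with like ligands, was highest in deep-layer excitatory neuron-like cells at 415 and 264 CPM and overlapped other excitatory neuron-like cells at 312 and 253 CPM. PLXNA1 was highest in oligodendrocyte precursor-like cells at 20.9 and 33.2 CPM, and PLXNA3 stayed at or below 23.4 CPM in all classes. PLXNB2, a receptor of class 4 semaphorins, was highest in perivascular-like cells at 60.3 and 85.3 CPM and lay between 16.6 and 49.0 CPM in all others. In perivascular-like cells 3 UMIs would be 30.2 and 51.2 CPM, so this rank of PLXNB2 rests on few UMIs. PLXNB1 and PLXNB3 did not exceed 20.7 and 27.0 CPM. PLXNC1, the SEMA7A receptor, had 41.3 and 32.5 CPM in CGE-type inhibitory neuron-like cells and 42.1 and 25.3 CPM in microglia-like cells, which overlapped.

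NRP1 and NRP2 differed in where they were seen. NRP1 had 163 and 150 CPM in endothelial-like cells and 163 and 145 CPM in other excitatory neuron-like cells, which overlapped. NRP2 had 44.5 and 47.9 CPM in endothelial-like cells and 0.548 and 0.298 CPM in other excitatory neuron-like cells. No other class exceeded 18.0 CPM of NRP2.

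Summed over all semaphorins and over all receptors, the classes differed in balance. Receptor sums exceeded ligand sums in both libraries in 2 of 13 classes. These were the CGE-type inhibitory neuron-like cells (567 against 467 CPM in library A, 453 against 426 CPM in library B) and the dividing EOMES progenitor-like cells (425 against 407 CPM, and 391 against 365 CPM). The sums were close in dividing EOMES cells (653 against 625 UMIs, and 240 against 224). They were also close in CGE-type cells of library B (167 against 157 UMIs, with 714 against 588 in library A). These excesses were not tested, and with 1 more marker per gate the count was 3 classes. The ratio of receptor to ligand sums was 0.271 and 0.316 in non-dividing and 0.334 and 0.388 in dividing HOPX glia-like cells, and 0.198 and 0.521 in oligodendrocyte precursor-like cells. A few genes made these sums. SEMA3C held 47.8% and 45.2% of the semaphorin UMIs of other excitatory neuron-like cells, and PLXNA2 held 70.1% and 69.8% of the receptor UMIs of non-dividing EOMES progenitor-like cells. SEMA6A led the semaphorins of non-dividing HOPX glia-like cells with 35.5% and 32.8%. SEMA6D led those of oligodendrocyte precursor-like cells with 36.5% and 37.6%. Since UMIs are not length-scaled, a ratio of these sums compares captured RNA, not protein or binding sites.

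**Figure D2:**
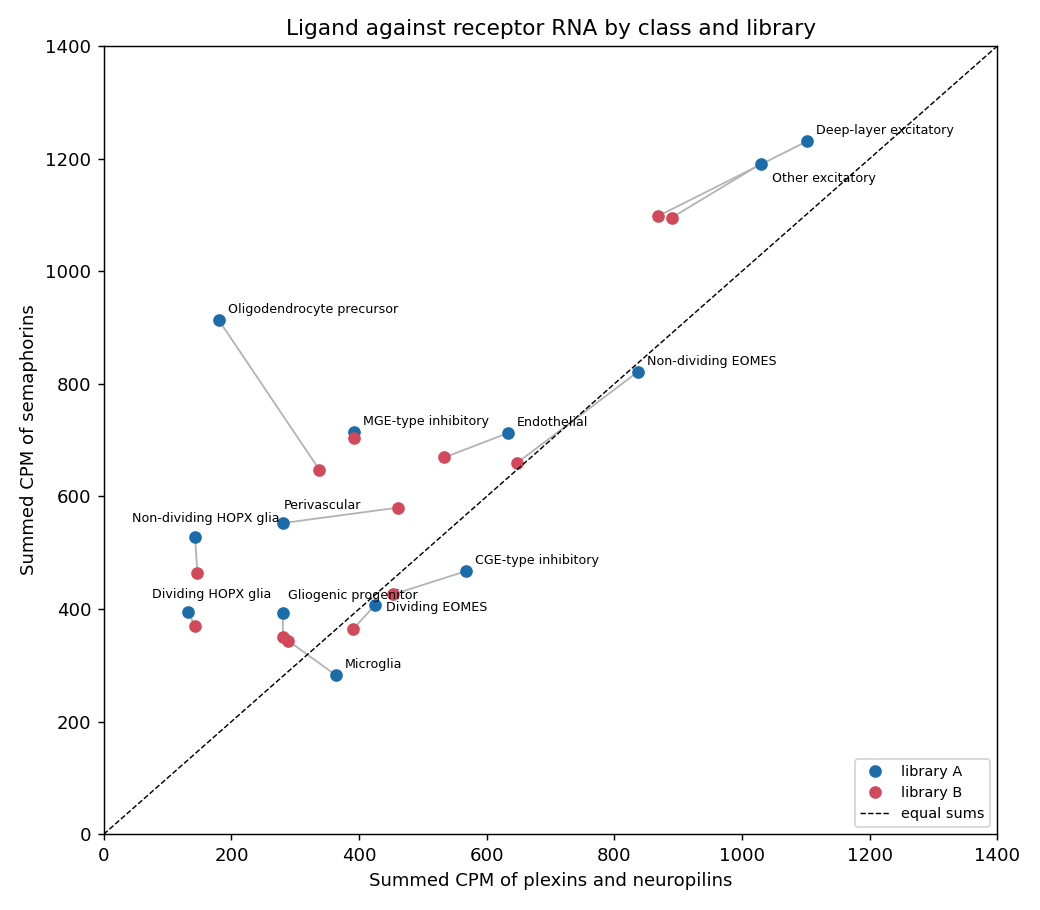
Summed CPM of the 20 semaphorins (vertical) against that of the 11 plexins and neuropilins (horizontal) in 13 classes, with a grey line joining the libraries of a class. Non-dividing HOPX glia-like cells sit far above the dashed line of equal sums (528 against 143 CPM in library A), and both excitatory neuron-like classes have the highest ligand sums (1095 to 1231 CPM).

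Textbook ligand and receptor pairs fell partly in the same and partly in different classes. SEMA6A was highest in endothelial-like and HOPX glia-like cells, and its receptor PLXNA2 was lower in the dividing and non-dividing HOPX glia-like cells (34.5 to 51.6 CPM) than in any other class of the same library. In endothelial-like cells PLXNA2 had 178 and 127 CPM. The other receptor of SEMA6A, PLXNA4, had 30.4 and 21.9 CPM in non-dividing HOPX glia-like cells and 59.4 and 45.9 CPM in endothelial-like cells. SEMA3C was highest in excitatory neuron-like cells, where NRP1 had 144 to 163 CPM, whereas PLXND1 had 1.90 and 8.01 CPM in deep-layer and 2.88 and 3.27 CPM in other excitatory neuron-like cells. SEMA3E was highest in oligodendrocyte precursor-like cells, and its receptor PLXND1 had 3.80 and 0 CPM there. SEMA3G and NRP2 both had their highest level in endothelial-like cells.

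The comparisons below were tested on summed UMIs per class and library with edgeR's quasi-likelihood test, with p-values adjusted by Benjamini-Hochberg over 11955 genes and called at 0.05. A log2 difference is positive where the first-named class was higher and comes with its standard error, with n = 2 libraries per class. The error is not the spread of the compared classes alone. It uses the residual spread pooled over the 13 classes (12 residual degrees of freedom), drawn toward a trend across genes (54.9 prior degrees of freedom). Of the 31 genes, 22 passed the filter on low counts. SEMA3B, SEMA3D, SEMA3F, SEMA4A, SEMA4C, SEMA4D, SEMA4G, SEMA6B and SEMA7A did not and were not tested. The filter asks for enough UMIs in a few sums of any class. Outside the class where each was highest, SEMA3G, NRP2 and SEMA3E reached at most 17.1, 18.0 and 12.8 CPM. They thus passed mainly through endothelial-like cells or, for SEMA3E, oligodendrocyte precursor-like cells. PLXND1 had at most 8.01 CPM in the neural classes, so it passed mainly through endothelial-like, perivascular-like and microglia-like cells. The p-values of these genes as higher in such classes come from genes kept for that height, though these calls also held without the filter. A further list of 36 pathway genes (co-receptors, GTPases and their regulators, collapsin response mediators, kinases and cytoskeletal enzymes) was read in the same fits, and 32 of them passed the filter.

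Non-dividing EOMES progenitor-like cells had more semaphorin and plexin RNA than non-dividing HOPX glia-like cells for most genes called. Of the 22 tested, 11 were higher and 2 lower, with a median log2 difference of 1.29, where the median of all genes tested was -0.03 and 44.6% of them were called (20.3% higher and 24.3% lower). PLXNA2 had 586 and 452 CPM in the EOMES cells, against 34.5 and 45.5 CPM in the HOPX cells, a log2 difference of 3.79 ± 0.13 (adjusted p = 2.29e-37, edgeR). SEMA3C had 241 and 149 CPM, against 19.1 and 25.9 CPM in the HOPX cells (3.28 ± 0.16, adjusted p = 1.78e-28, edgeR). Both differences were larger in library A (4.08 and 3.66) than in library B (3.31 and 2.52), and the groups did not overlap. SEMA3E was at 12.8 and 12.02 CPM in EOMES cells and at 3.87 and 1.69 CPM in HOPX cells (1.94 ± 0.51). SEMA6C (1.86 ± 0.25), PLXNB3 (1.84 ± 0.37), PLXNA4 (1.77 ± 0.18) and NRP1 (1.75 ± 0.29) also rose, and so did PLXNC1, SEMA6D, SEMA3A and PLXNA3 by 1.21 to 1.63. For PLXNA3 the classes overlapped, at 23.4 and 7.51 CPM in EOMES cells, against 9.28 and 5.06 CPM in HOPX cells. NRP1 differed by 2.09 in the cells of library A and by 1.06 in those of library B. The ligands that fell were SEMA5B, at 25.1 and 34.5 CPM in EOMES cells, against 86.6 and 74.8 CPM in HOPX cells (-1.59 ± 0.20), and SEMA6A, at 59.0 and 78.1 CPM, against 188 and 152 CPM (-1.48 ± 0.14). Of the pathway genes, 13 were higher and 10 lower: L1CAM, an NRP1 partner, had 118 and 116 CPM in EOMES cells, against 8.51 and 9.56 CPM in HOPX cells. ERBB2, a kinase that associates with B-type plexins, had 0.557 and 1.502 CPM, against 21.7 and 20.2 CPM. With 1 more marker required in each gate, the call for NRP1 was lost and its sign turned (-1.83, adjusted p = 0.303, edgeR), and those for PLXNC1 and SEMA3E were lost. DESeq2 did not call PLXNA3. With thinned cells PLXNA3, PLXNB3, PLXNC1 and SEMA3E did not pass the filter. Excitatory neuron markers summed to 519 and 488 CPM in EOMES cells, against 48.2 and 52.8 CPM in HOPX cells. The part of these markers in the differences was not tested.

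Within the EOMES lineage, non-dividing cells had more of 10 of the 22 tested genes than dividing cells and less of none, where 24.0% of all genes were called (12.6% higher and 11.4% lower). At an unadjusted p under 0.05, 1 member was lower, and DESeq2 called 0 lower. The median log2 difference was 1.004 for the members and 0.05 for all genes. PLXNA3 had 23.4 and 7.51 CPM in non-dividing cells, against 2.60 and 1.63 CPM in dividing cells (2.97 ± 0.58, adjusted p = 3.58e-05, edgeR). SEMA6D had 205 and 152 CPM, against 64.4 and 73.3 CPM in dividing cells (1.51 ± 0.15, adjusted p = 2.72e-13, edgeR). SEMA6C (1.85 ± 0.31), SEMA3E (1.76 ± 0.61), PLXNA4 (1.61 ± 0.21), NRP1 (1.35 ± 0.34) and SEMA3A (1.23 ± 0.16) also rose at least 2-fold. SEMA3C, PLXNA2 and SEMA6A rose by 0.76 to 0.91. The differences of NRP1 (1.66 in library A, 0.52 in library B) and PLXNA4 (1.85 and 0.94) were the smaller in library B, and those of SEMA3E were the larger there (1.49 and 2.88). PLXNA3 differed by 3.17 in library A and 2.20 in library B, and SEMA6D by 1.67 and 1.05. Among the pathway genes, 14 were higher and 1 lower, led by L1CAM at 118 and 116 CPM, against 39.0 and 45.6 CPM (1.53 ± 0.18). Median UMIs per cell were 4269 and 3691.5 in non-dividing and 6746 and 5909 in dividing cells. The part of UMIs in the result was not tested beyond thinning and leaving out the cells of highest UMIs. Thinning every cell to 1500 UMIs left 7 of the 10 calls: that for NRP1 was lost, and PLXNA3 and SEMA3E did not pass the filter. Without the cells above the 95th percentile of UMIs 7 members were called, and the calls for SEMA3E and SEMA6A were lost. DESeq2 did not call PLXNA2, SEMA3E and SEMA6A. Excitatory neuron markers summed to 519 and 488 CPM in non-dividing cells, against 136 and 209 CPM in dividing cells. The part of these markers in the differences was not tested. This comparison was added after the levels were seen, and it has no result with 1 more marker per gate.

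Other excitatory neuron-like cells had more of 7 and less of 7 of the 22 tested genes than non-dividing EOMES progenitor-like cells, where 24.8% of all genes were called (12.8% higher and 11.9% lower). The median log2 difference was 0.14 for the members and 0.04 for all genes. NRP1 had 163 and 145 CPM in the neurons, against 32.8 and 21.0 CPM in the progenitors (2.50 ± 0.15, adjusted p = 1.49e-22, edgeR). PLXNA4 had 312 and 253 CPM, against 108 and 72.1 CPM in the progenitors (1.70 ± 0.11, adjusted p = 7.28e-21, edgeR). SEMA3C had 570 and 494 CPM, against 241 and 149 CPM in the progenitors (1.45 ± 0.09, adjusted p = 1.09e-21, edgeR). The neurons were higher in both libraries for each of these 3 genes. SEMA4F, a class 4 ligand, also rose (1.61 ± 0.43), as did PLXNC1 and SEMA6D by 0.96 and 0.91. PLXND1 was called higher at 2.88 and 3.27 CPM, against no UMI in the progenitors, where 3 UMIs would be 1.67 and 4.51 CPM, so no fold is given. The genes that fell were NRP2, at 0.548 and 0.298 CPM in neurons, against 6.12 and 3.004 CPM in progenitors (-3.14 ± 0.75), SEMA3E (-1.27 ± 0.44) and PLXNB3 (-1.05 ± 0.32). SEMA5B, SEMA3A, SEMA6A and PLXNA2 fell by 0.25 to 0.82. Library A alone gave -0.83 for SEMA3A and library B alone -0.26, and SEMA5B differed by -0.71 and -1.37. In the pathway list, 7 were higher and 4 lower: RRAS, a target of the plexin GTPase-activating domain, had 5.35 and 8.63 CPM in neurons, against 18.4 and 33.0 CPM in progenitors. CDK5R1, the activator of CDK5, had 190 and 181 CPM, against 95.8 and 87.1 CPM. DESeq2 kept 9 of the 14 calls, losing PLXNA2, PLXNC1, SEMA3A, SEMA3E and SEMA6A, and with 1 more marker per gate only NRP1, NRP2, PLXNA4, SEMA3C and SEMA6D remained. Without the library in the fit the call for PLXNA2 was lost, and with thinned cells 7 of the 14 calls held. There PLXND1 and SEMA5B lost their calls, and NRP2, PLXNB3, PLXNC1, SEMA3E and SEMA4F did not pass the filter.

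**Figure D3:**
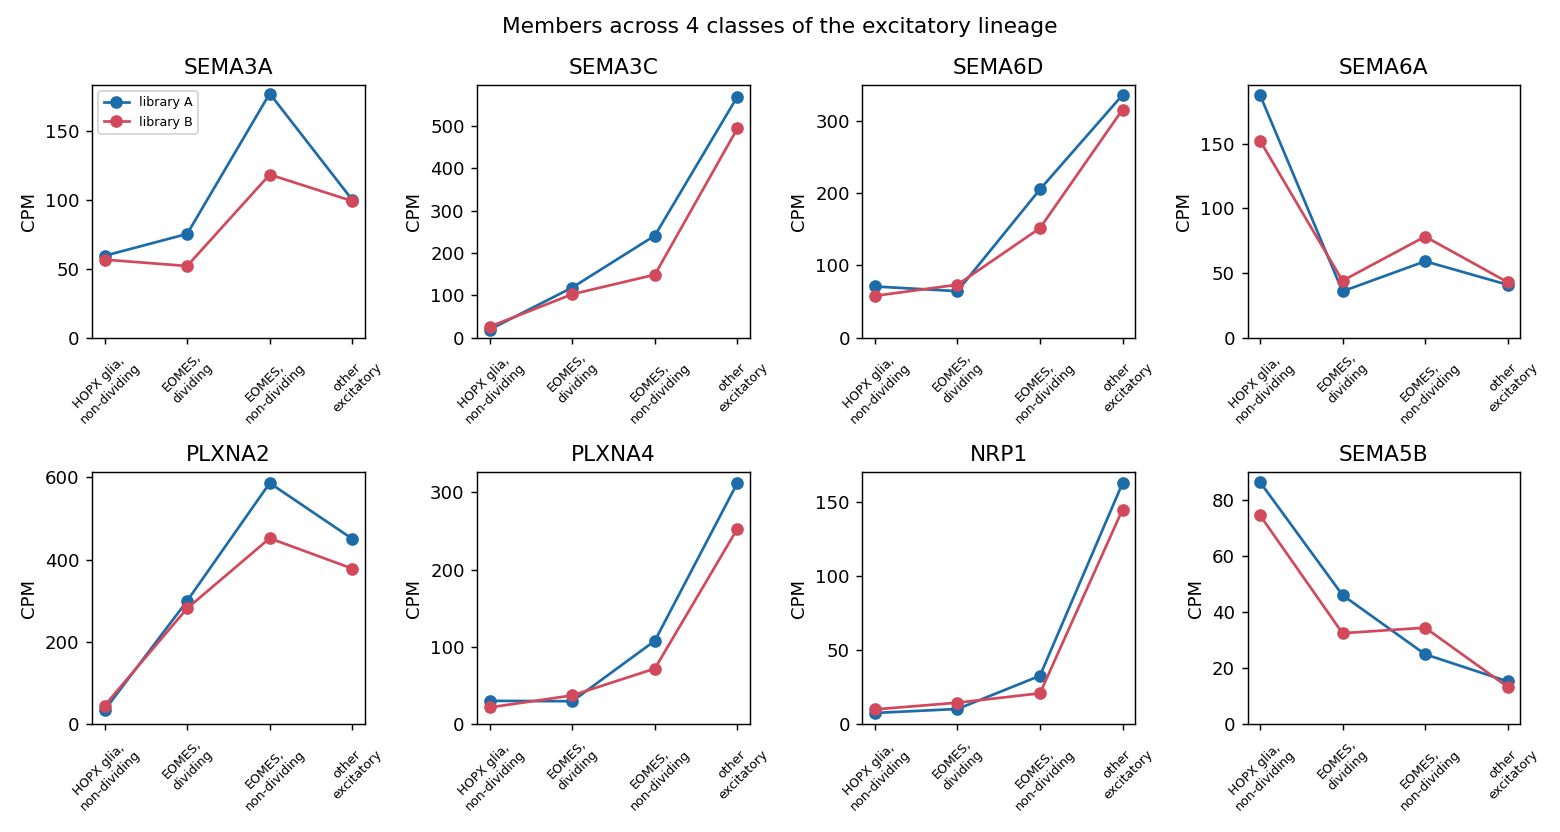
CPM of 8 genes in 4 classes of the excitatory lineage (horizontal), 1 line per library. SEMA3C, PLXNA4 and NRP1 are highest in other excitatory neuron-like cells, PLXNA2 and SEMA3A in non-dividing EOMES progenitor-like cells, and SEMA6A and SEMA5B in non-dividing HOPX glia-like cells (188 and 152 CPM of SEMA6A).

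Between deep-layer and other excitatory neuron-like cells, edgeR's test called none of the 22 tested genes (0 called, where 0.954% of all genes were called, 0.711% higher and 0.243% lower). At an unadjusted p under 0.05, 1045 of all genes and 1 member, PLXNA4, differed, and DESeq2 called 0 members. PLXNA4 had 415 and 264 CPM in deep-layer cells, against 312 and 253 CPM in other cells (0.25 ± 0.10, adjusted p = 0.336, edgeR). Of the pathway genes, CHL1, a cell adhesion partner of neuropilin, was higher at 247 and 216 CPM, against 173 and 152 CPM (0.44 ± 0.11, adjusted p = 0.0361, edgeR).

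MGE-type inhibitory neuron-like cells had far less SEMA3C, NRP1 and PLXNA4 RNA than other excitatory neuron-like cells and more SEMA5A and NRP2. Of the 22 tested genes, 3 were higher and 5 lower, where 20.1% of all genes were called (8.91% higher and 11.2% lower), and the median log2 difference was -0.73 for the members and -0.04 for all genes. SEMA3C had 12.6 and 38.1 CPM in MGE-type cells, against 570 and 494 CPM in excitatory cells (-5.13 ± 0.22, adjusted p = 1.19e-31, edgeR). NRP1 had 6.85 and 21.8 CPM, against 163 and 145 CPM in excitatory cells (-4.17 ± 0.29, adjusted p = 1.38e-20, edgeR). PLXNA4 had 42.2 and 49.0 CPM, against 312 and 253 CPM (-2.93 ± 0.19, adjusted p = 3.99e-22, edgeR). Library B, with 55 MGE-type cells, gave smaller differences for SEMA3C (-3.70, against -5.50 in library A) and NRP1 (-2.74, against -4.57), and the classes overlapped in neither. In library B the MGE-type cells also held 812 CPM of summed HOPX glia markers, against 168 CPM in library A. Their excitatory neuron markers summed to 81.7 CPM in library B, against 44.5 CPM in library A. Division markers summed to 645 and 420 CPM in MGE-type cells, against 101 and 93.1 CPM in excitatory cells. The part of these lists in the result was not tested. SEMA5A had 91.3 and 76.3 CPM in MGE-type cells, against 3.15 and 2.38 CPM in excitatory cells (4.72 ± 0.33, adjusted p = 2.66e-20, edgeR). NRP2, which in mouse steers MGE interneurons away from the striatum, had 5.71 and 10.9 CPM, against 0.548 and 0.298 CPM, from 7 and 5 UMIs in all (3.44 ± 0.93, adjusted p = 0.00365, edgeR). For NRP2 the log2 ratios were 3.38 (library A) and 5.19 (library B). PLXNA2 and SEMA3A fell by 0.97 and 0.87, with SEMA3A at -0.55 in library A and -1.87 in library B. SEMA6A rose by 0.97, a call lost with thinned cells, and the call for SEMA3A was lost with 1 more marker per gate. NRP2 did not pass the filter with thinned cells. Of the 32 pathway genes tested, 5 were higher and 6 lower: FARP1, an exchange factor that binds A-type plexins, had 353 and 316 CPM in MGE-type cells, against 37.7 and 39.9 CPM in excitatory cells (3.01 ± 0.13). CHL1 had 971 and 844 CPM, against 173 and 152 CPM (2.36 ± 0.09), and NRCAM, an adhesion partner of neuropilins, had 213 and 202 CPM, against 50.3 and 45.2 CPM (1.97 ± 0.14).

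MGE-type and CGE-type inhibitory neuron-like cells differed in 5 of the 22 tested genes, 2 higher and 3 lower in MGE-type cells, where 8.48% of all genes were called (3.91% higher and 4.58% lower). SEMA6D had 359 and 283 CPM in MGE-type cells, against 93.8 and 78.7 CPM in CGE-type cells (1.90 ± 0.16, adjusted p = 1.9e-16, edgeR). SEMA6A had 85.6 and 114 CPM, against 41.3 and 19.0 CPM (1.29 ± 0.28, adjusted p = 0.000501, edgeR), with log2 ratios of 1.05 in library A and 2.59 in library B. Neither gene overlapped between the classes. PLXNC1 was lower, with 19.4 and 0 CPM in MGE-type cells, against 41.3 and 32.5 CPM in CGE-type cells (-1.35 ± 0.39, adjusted p = 0.0143, edgeR). SEMA5B was lower at 4.56 and 16.3 CPM, against 20.7 and 24.4 CPM (-1.72 ± 0.55, adjusted p = 0.0332, edgeR), by -2.18 in library A and -0.58 in library B. PLXNA2 fell by 0.54, a call lost without the library in the fit. The calls for PLXNC1, SEMA5B and PLXNA2 were also lost with DESeq2 and with 1 more marker per gate. That for SEMA5B was lost without the filter on low counts too, and that for SEMA6A with thinned cells. PLXNC1 did not pass the filter with thinned cells. The median log2 difference was -0.35 for the members and -0.01 for all genes. Neither class was split by division. Division markers summed to 645 and 420 CPM in MGE-type cells, against 852 and 1459 CPM in CGE-type cells. HOPX glia markers summed to 168 and 812 CPM, against 501 and 665 CPM. The part of either list in these differences was not tested. In the list of pathway genes, 5 were higher and 1 lower, with ARHGEF12, a RhoA exchange factor bound by B-type plexins, at 81.0 and 76.3 CPM in MGE-type cells, against 22.2 and 27.1 CPM in CGE-type cells.

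In the glial lineage, oligodendrocyte precursor-like cells had more SEMA5A, SEMA3E and SEMA6D RNA than non-dividing HOPX glia-like cells. Of the 22 tested genes, 6 were higher and 3 lower, where 27.9% of all genes were called (12.2% higher and 15.7% lower), and the median log2 difference was 0.18 for the members and -0.07 for all genes. SEMA5A had 156 and 72.0 CPM in the precursors, against 5.16 and 6.18 CPM in the HOPX cells (4.40 ± 0.33, adjusted p = 6.37e-19, edgeR). SEMA3E had 70.3 and 33.2 CPM, against 3.87 and 1.69 CPM (4.03 ± 0.48, adjusted p = 9.03e-11, edgeR). SEMA6D had 333 and 244 CPM, against 70.9 and 57.9 CPM (2.05 ± 0.15, adjusted p = 1.24e-18, edgeR). These 3 ligands were higher in the precursors of both libraries. PLXNB3, a receptor of SEMA5A, rose by 1.66 ± 0.53, PLXNA2 by 1.14 ± 0.28 and SEMA5B by 0.57 ± 0.20. SEMA3A fell to 13.3 and 33.2 CPM, against 59.6 and 56.8 CPM (-1.83 ± 0.38), and SEMA6A fell to 125 and 44.3 CPM, against 188 and 152 CPM (-0.92 ± 0.20). SEMA4B was called lower with 2 UMIs in the precursors, 3.80 CPM in library A (95% Poisson interval 0.460 to 13.7, counting error only) and 0 in library B, against 21.9 and 22.5 CPM. Library B held 33 precursors, and there the log2 ratios were 3.54 for SEMA5A (4.92 in library A), 2.004 for PLXNA2 (0.86), -0.77 for SEMA3A (-2.16) and -1.78 for SEMA6A (-0.58). The precursors held 28.5 and 110.7 CPM of summed EOMES progenitor markers in libraries A and B, against 22.7 and 33.2 CPM in the HOPX cells. PLXNA2 had 62.7 and 182.7 CPM in the precursors. They held 1449 and 1101 CPM of division markers, against 68.6 and 69.1 CPM in the HOPX cells, and the part of either list in these differences was not tested. The calls for SEMA3A and SEMA6A were lost with 1 more marker per gate, and that for SEMA5B with thinned cells. SEMA3E, PLXNB3 and SEMA4B did not pass the filter with thinned cells, where 5 members were called. Among the pathway genes, 5 were higher and 9 lower: TIAM1, a Rac exchange factor, had 118 and 66.4 CPM in the precursors, against 18.0 and 19.1 CPM, and DPYSL5, a collapsin response mediator protein, had 34.2 and 38.7 CPM, against 143 and 118 CPM.

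Gliogenic progenitor-like cells, gated on EGFR and OLIG1, lacked the SEMA5A and SEMA3E levels of the precursors. Against non-dividing HOPX glia-like cells, 3 of the 22 tested genes were higher and 3 lower, where 33.2% of all genes were called (13.8% higher and 19.4% lower); the median log2 difference was -0.14 for the members and -0.10 for all genes. PLXNC1 had 19.5 and 15.6 CPM in the gliogenic cells, against 4.13 and 1.69 CPM in the HOPX cells (2.30 ± 0.42, adjusted p = 5.43e-06, edgeR), by 2.24 in library A and 3.21 in library B. PLXNA2 had 138 and 154 CPM, against 34.5 and 45.5 CPM (1.79 ± 0.18, adjusted p = 2.39e-13, edgeR). SEMA6D rose by 0.48, a call lost with cells thinned to 1500 UMIs. PLXNC1 and SEMA4B did not pass the filter with thinned cells, where 3 members were called. SEMA4B (-1.24 ± 0.36) and SEMA6A (-1.11 ± 0.14) fell, with ratios of -1.34 and -0.72 for SEMA4B in libraries A and B, and SEMA3A fell by 0.96. Division markers summed to 1910 and 1847 CPM in the gliogenic cells, against 68.6 and 69.1 CPM in the HOPX cells; their part in these differences was not tested. Of the pathway genes, 3 were higher and 11 lower.

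Set directly against gliogenic progenitor-like cells, a comparison added after the levels were seen, oligodendrocyte precursor-like cells had 4 members higher and 1 lower, where 14.7% of all genes were called (8.06% higher and 6.63% lower). The median log2 difference was 0.10 for the members and -0.01 for all genes. SEMA5A had 156 and 72.0 CPM in the precursors, against 5.77 and 1.95 CPM in the gliogenic cells (4.73 ± 0.41, adjusted p = 3.86e-15, edgeR). SEMA3E had 70.3 and 33.2 CPM, against 2.88 CPM and no UMI (4.71 ± 0.63, adjusted p = 1.19e-08, edgeR). SEMA6D rose by 1.57 ± 0.17 and SEMA5B by 0.78 ± 0.22, the last a call lost with thinned cells. SEMA3E did not pass the filter with thinned cells, where 2 members were called. NRP1 was called lower from 1 UMI in the precursors, 1.90 CPM in library A (interval 0.0481 to 10.6) and 0 in library B, against 13.7 and 15.6 CPM, a call lost with DESeq2, with thinned cells and with 1 more marker per gate. In the pathway list, 5 were higher and 3 lower.

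**Figure D4:**
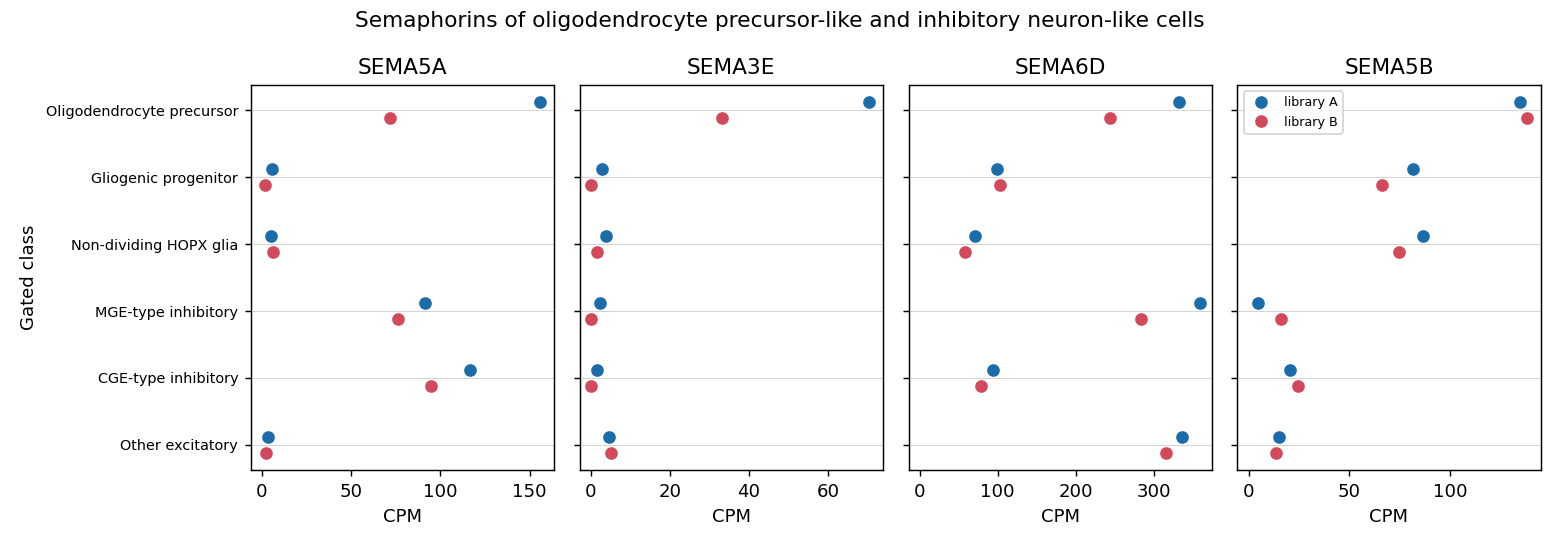
CPM of 4 semaphorins (horizontal) in 6 classes (rows), with a point per library. SEMA5A lies at 72.0 CPM or more in oligodendrocyte precursor-like and both inhibitory neuron-like classes and at or below 6.18 CPM in the other 3 classes shown, while SEMA3E stands apart only in the precursors (70.3 and 33.2 CPM).

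Endothelial-like cells had the highest PLXND1, SEMA3G and NRP2 levels of the 13 classes in both libraries. Against the 10 neural classes, each weighted equally, 6 of the 22 tested genes were higher and 1 lower, where 29.4% of all genes were called (19.1% higher and 10.2% lower). The median log2 difference was -0.15 for the members and -0.00485 for all genes. PLXND1, the endothelial receptor of SEMA3E and SEMA3C, had 134 and 123 CPM in endothelial-like cells, against a neural mean of 1.495 and 1.92 CPM (adjusted p = 5.45e-25, edgeR). Relative to the mean CPM of the neural classes, the log2 ratio was 6.48 (library A) and 5.998 (library B). Each p-value here belongs to the fit, which averages logs, and the log2 ratios to the mean neural CPM were not tested. SEMA3G had 79.2 and 45.9 CPM, against 0.174 and 0.796 CPM (log2 ratio 8.83 and 5.85, adjusted p = 3.16e-15, edgeR); 13 of the 20 neural sums held no UMI of it. NRP2 had 44.5 and 47.9 CPM, against 5.05 and 4.70 CPM (3.76 ± 0.45, adjusted p = 1.22e-10, edgeR), with log2 ratios of 3.14 and 3.35. NRP2, SEMA3G and PLXNA1 did not pass the filter with thinned cells, where 4 members were called. NRP1 had 163 and 150 CPM, against a neural mean of 39.4 and 38.8 CPM (3.51 ± 0.23, adjusted p = 3.31e-21, edgeR). Its log2 ratios were 2.05 and 1.95, but excitatory neuron-like cells reached the same level. SEMA6A had 252 and 179 CPM, against 84.7 and 70.9 CPM (1.65 ± 0.18, adjusted p = 7.99e-12, edgeR). SEMA3C was called higher in the fit, which averages logs (1.53 ± 0.21), yet its 163 and 156 CPM overlapped the mean neural CPM of 158 and 141. PLXNA1 was called lower from 1 UMI in endothelial-like cells, 4.95 CPM in library A (interval 0.125 to 27.6) and 0 in library B, against 13.1 and 14.1 CPM. The PLXNA1 call was lost with DESeq2 and with 1 more marker per gate. Among the pathway genes, 6 were higher and 7 lower, led by KDR, the VEGF receptor that pairs with NRP1, at 366 and 304 CPM, against 0.766 and 0.758 CPM. RRAS had 94.0 and 62.5 CPM, against 17.9 and 20.9 CPM. Endothelial-like cells also held 267 and 223 CPM of summed excitatory neuron markers, against 2233 and 2246 CPM in other excitatory neuron-like cells, and 317 and 502 CPM of perivascular markers; the part of either in SEMA3C, NRP1 or other levels was not tested. Their median mitochondrial share was 3.16% and 4.17%, against 1.31% and 1.51% in other excitatory neuron-like cells.

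Perivascular-like cells, 29 and 22 in number, had 80.4 and 34.1 CPM of PLXND1 and no UMI of NRP2 in either library, where 3 UMIs would be 30.2 and 51.2 CPM. They held 362 and 1484 CPM of endothelial markers, and the part of these in the PLXND1 level was not tested.

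Microglia-like cells, like endothelial-like cells, had PLXND1, and they had little SEMA6A and SEMA5B. Against the neural classes 5 of the 22 tested genes were higher and 4 lower, where 33.9% of all genes were called (20.2% higher and 13.6% lower), and the median log2 difference was -0.57 for the members and -0.11 for all genes. PLXND1 had 75.1 and 28.9 CPM in microglia-like cells, against a neural mean of 1.495 and 1.92 CPM (log2 ratio 5.65 and 3.91, adjusted p = 7.92e-16, edgeR). PLXNC1 had 42.1 and 25.3 CPM, against 18.4 and 11.2 CPM (1.73 ± 0.40, adjusted p = 0.00029, edgeR). NRP1 had 54.1 and 57.8 CPM, against 39.4 and 38.8 CPM (2.31 ± 0.36, adjusted p = 1.18e-07, edgeR), with log2 ratios of 0.46 and 0.58. PLXND1, PLXNC1 and NRP1 were higher than the neural mean in both libraries, but excitatory neuron-like cells had 144 to 163 CPM of NRP1. Each p-value belongs to the fit, which averages logs, as do values with a standard error. The log2 ratios are to the mean neural CPM and were not tested. Those of PLXNC1 were 1.20 and 1.18, and those of SEMA5B were -3.04 and -2.72. SEMA6A had 12.02 and 10.8 CPM, against 84.7 and 70.9 CPM (-2.24 ± 0.48), and SEMA5B had 6.01 and 7.23 CPM, against 49.5 and 47.6 CPM (-1.96 ± 0.58). PLXNA2 and SEMA6D fell by 0.77 and 0.58 in the fit. With thinned cells the calls for SEMA6A, SEMA5B, PLXNA2 and SEMA6D were lost, and with DESeq2 those for PLXNA2 and SEMA6D. PLXNC1 and NRP2 did not pass the filter with thinned cells. The calls for NRP2 and SEMA3C did not hold in direction: NRP2 had 18.0 and 3.62 CPM, against 5.05 and 4.70 CPM (log2 ratio 1.84 and -0.38), and SEMA3C had 72.1 and 137 CPM, below the mean neural CPM of 158 and 141 (log2 ratio -1.13 and -0.04). Microglia-like cells held 526 and 535 CPM of summed endothelial markers, of which EGFL7 gave 519.8 and 535.1 CPM. CLDN5 had 3.005 CPM in library A and 0 in library B, against 3246 and 3044 CPM in endothelial-like cells, and FLT1, PECAM1, CDH5, EMCN and TIE1 were at 0 in both libraries. Excitatory neuron markers summed to 120 and 152 CPM, and their part in NRP1 and SEMA3C was not tested. The median mitochondrial share of microglia-like cells was 2.87% and 2.92%, against 1.31% and 1.51% in other excitatory neuron-like cells. Of the pathway genes, 7 were higher and 11 lower, with MICAL1, an actin-oxidising enzyme bound by plexins, at 63.1 and 43.4 CPM, against 8.76 and 9.16 CPM. NRCAM had 9.01 and 21.7 CPM, against 122 and 108 CPM.

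**Figure D5:**
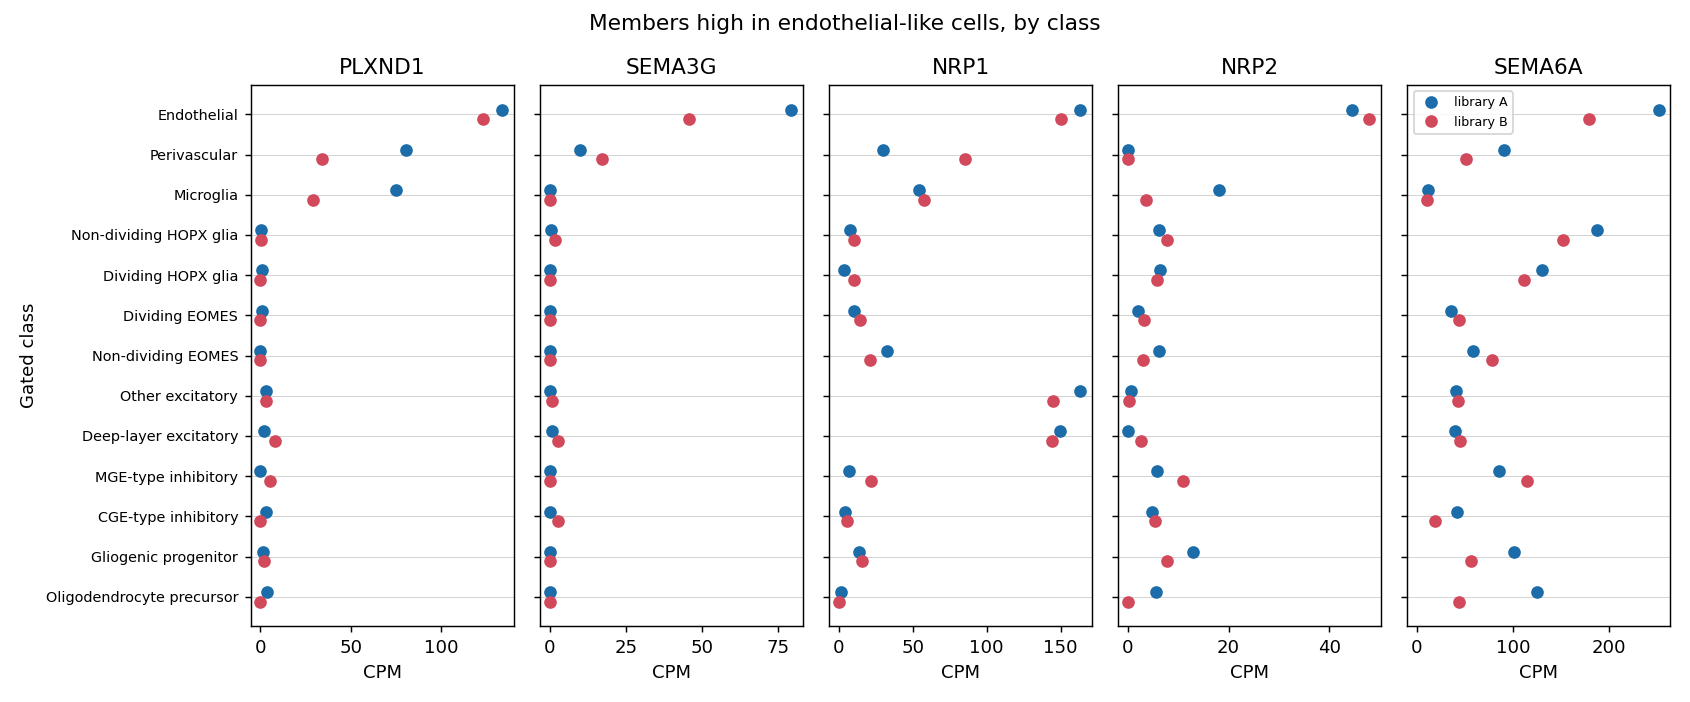
CPM of 5 genes (horizontal) in 13 classes (rows, endothelial-like at the top), with a point per library. PLXND1, SEMA3G and NRP2 stand highest in endothelial-like cells in both libraries, whereas NRP1 reaches the same level in both excitatory neuron-like classes (144 to 163 CPM) and SEMA6A comes close in non-dividing HOPX glia-like cells.

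The classes with fewer than 20 cells in a library, erythroid-like (5 and 5 cells) and ependymal-like (2 and 21), were not tested. In the 21 ependymal-like cells of library B, SEMA6D had 9 UMIs, 181 CPM (95% Poisson interval 82.6 to 343), and SEMA3A had 7 UMIs, 140.4 CPM (56.5 to 289). These intervals span the levels of several tested classes.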

How the data were processed

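Single-cell RNA was measured in 2 wild-type replicate libraries. The values deposited by the authors are raw UMI counts in a single gene-by-cell matrix of both libraries. Cell Ranger is named in the submitters' processing notes, with neither a version nor a genome build given in the sources used here. No cell had under 1501 UMIs. There were 0 unused per-sample columns.

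A cell needed 500 detected genes and no more than 10% of its UMIs from 13 mitochondrial genes, which removed 14 cells. No doublet caller was run. Gate minima were settled on marker counts before the values of the members were computed. A MEIS2 gate was not used because most cells carried MEIS2. The UMI sums of each class and library were tested by the quasi-likelihood method of edgeR 4.0.16 under R 4.3.3 (TMM, filterByExpr). The fit had 26 sums, class and library as terms, and 12 residual degrees of freedom. It was tried on simulated data for the comparison of MGE-type with other excitatory neuron-like cells only. The spread there was a fixed value not estimated from these data, and the classes otherwise shared the same gene proportions. The classes compared come from the same libraries, so the library is the replicate block. Gate markers were left out of the adjustment, and 11955 genes remained. Intervals are exact Poisson intervals for counting error only. Other settings were DESeq2 1.42.0, DESeq2's size factors, no filter on low counts, cells thinned to 1500 UMIs, 1 more marker per gate, no replicate block, no cell filter, no cells above the 95th percentile of UMIs, only the 2 classes compared, and each library alone.

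Members called with at least a 2-fold difference and the same direction in both libraries are given with statistics, at most 8 per comparison, others by range, and at most 3 pathway genes. Members, lists and tests were chosen with earlier results of these data known. The comparisons of non-dividing with dividing EOMES progenitor-like cells and of oligodendrocyte precursor-like with gliogenic progenitor-like cells were added after the levels were seen.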

Additional observations from a re-analysis of the deposited data

How the results depend on the processing

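Of 86 called differences of members, 70 held with DESeq2, 85 with DESeq2's size factors, 84 without the filter on low counts, 86 without the cell filter, 49 of 62 with thinned cells, 54 of 75 with stricter gates, 77 of 82 without the cells of highest UMIs, and 65 of 65 in fits of only the 2 classes compared; 5 further calls did not pass the filter there (NRP2 in 2 comparisons, PLXND1, PLXNA3 and NRP1), and these fits were not run for the neural means. Without the replicate block 84 held; only the calls for PLXNA2 in MGE-type against CGE-type cells and in other excitatory cells against EOMES progenitors were lost. Library A alone kept the direction of 84 of 85 and library B alone of 78 of 80.

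Counts of members called moved for MGE-type against CGE-type cells (5; 2 with DESeq2, 3 thinned, 2 with stricter gates), for other excitatory cells against non-dividing EOMES progenitors (14; 9, 7 and 5 under the same settings) and for gliogenic progenitors against HOPX glia (6; 10 without the filter, 3 thinned, 10 in the fit of 2 classes). With thinned cells the count was 5 in place of 9 for oligodendrocyte precursors against HOPX glia, 4 in place of 7 for endothelial-like cells, 3 in place of 9 for microglia-like cells and 2 in place of 5 for oligodendrocyte precursors against gliogenic progenitors. Thinning also left the highest class of 18 of 31 members the same. The cause of these changes was not tested. Thinning keeps fewer UMIs per cell by construction.

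Directions turned for NRP1 in EOMES progenitors against HOPX glia with stricter gates (-1.83), and in microglia-like cells for SEMA3C in library A alone (-1.13) and library B alone (-0.0357) and for NRP2 in library B alone (-0.38, against 1.84 in library A alone); the library values are ratios to the mean neural CPM, where the fit averages logs. DESeq2's size factors shifted the median of all genes by 0.12 (log2) for microglia-like cells, where SEMA6D then lost its call. As a limit of depth, 3 UMIs were 16.6 CPM in the oligodendrocyte precursors and 51.2 CPM in the perivascular-like cells of library B.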
